A study of Mus musculus with 2 samples.

Results

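T cell receptor alpha variable (Trav) segments of mice with PDR and with SKYD syndrome were compared. The members were all rows of the gene table with the biotype TR_V_gene and a name that starts with Trav, and there were 108 of them among 54532 genes. Both groups were male ApoE-/- mice on a C57BL/6J background, labelled as 6 weeks old. The PDR group (phlegm-dampness retention, a syndrome of traditional Chinese medicine) had a high-fat diet for 4 weeks. The SKYD group (deficiency of spleen and kidney Yang) had propylthiouracil, a drug that lowers thyroid hormone, by gavage at 10 mg/kg per day for 4 weeks and then the high-fat diet for 2 weeks. The syndrome, the drug, the length of the diet and the length of the experiment cannot be told apart in this design. Cells of the aorta were sorted on F4/80 and CD11b, proteins of the macrophage surface, and the cells of 5 mice were mixed into 1 library in each group. With 1 library in each group, no difference here has a replicate check, and no p-value is given.

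The alpha chain of the T cell receptor is not encoded by a complete gene in the germ line. In a developing T cell, the Rag1 and Rag2 proteins cut the DNA and join a V segment to a J segment (Traj), and splicing then links the joined exon to the constant gene Trac. Each T cell therefore transcribes mainly the V segment it has joined, and the V segment supplies most of the part of the chain that meets antigen. The delta chain genes lie inside the same locus, between the V segments and the J segments, and V segments with dv in their name can also be used in a delta chain. In the mouse, much of the V region is repeated, and the repeated segments carry the letters d and n in their names. Macrophages do not join these segments, and the segments are therefore markers of T cells in a macrophage sort.

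All 108 segments lie on the plus strand of chromosome 14 in GRCm38, from Trav1, the farthest from the J segments, to Trav23, the nearest. Each has 2 annotated exons, of which the second (the V exon) codes for nearly all of the variable region. V exons ran from 264 to 312 bases, with a median of 291.5, and none held an in-frame stop. In all 108, the last in-frame cysteine codon, which opens the loop called CDR3, lay within 20 bases of the exon's end. The V exons of 4 segments (for Trav14-1, the last 300 bases) are shown because the results turn on them, with that cysteine codon in capitals. Trav17 (ENSMUSG00000096397, exon at chr14:53806821-53807115) and Trav6-3 (ENSMUSG00000094220, chr14:53430086-53430377) had the most reads in the SKYD library. Trav5-4 (ENSMUSG00000095607, chr14:53704224-53704514) had the most in the PDR library, and Trav14-1 (ENSMUSG00000076840, chr14:53554259-53554558) was among the most unequal, with 1 PDR read and 65 SKYD reads. All sequences are GENCODE vM21 transcripts of GRCm38, on the plus strand and 5′ to 3′.
Trav17: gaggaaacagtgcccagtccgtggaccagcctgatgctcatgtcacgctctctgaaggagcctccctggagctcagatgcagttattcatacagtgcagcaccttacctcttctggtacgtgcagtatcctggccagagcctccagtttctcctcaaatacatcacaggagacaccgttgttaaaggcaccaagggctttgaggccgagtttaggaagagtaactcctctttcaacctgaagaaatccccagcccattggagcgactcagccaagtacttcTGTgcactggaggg
Trav6-3: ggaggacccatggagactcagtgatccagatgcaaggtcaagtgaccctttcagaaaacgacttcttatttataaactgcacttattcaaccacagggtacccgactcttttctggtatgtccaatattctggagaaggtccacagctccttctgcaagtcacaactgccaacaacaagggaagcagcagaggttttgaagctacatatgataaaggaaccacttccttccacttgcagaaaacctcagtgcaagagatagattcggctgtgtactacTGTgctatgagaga
Trav5-4: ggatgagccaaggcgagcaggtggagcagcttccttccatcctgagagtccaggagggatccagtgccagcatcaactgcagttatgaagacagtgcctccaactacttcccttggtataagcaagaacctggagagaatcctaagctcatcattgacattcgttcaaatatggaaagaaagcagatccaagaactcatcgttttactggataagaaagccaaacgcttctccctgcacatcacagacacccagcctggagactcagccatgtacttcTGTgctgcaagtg
Trav14-1: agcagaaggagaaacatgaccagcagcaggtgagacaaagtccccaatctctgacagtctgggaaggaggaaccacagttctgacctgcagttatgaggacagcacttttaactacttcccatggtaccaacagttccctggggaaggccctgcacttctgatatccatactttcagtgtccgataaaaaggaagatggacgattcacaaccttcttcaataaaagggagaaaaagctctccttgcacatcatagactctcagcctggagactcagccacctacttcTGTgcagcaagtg

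The ends of further V exons show how alike members of a family are in the stretch that runs into CDR3. The last 60 bases are given for segments named in the results and for Trav3-3, of the same family as Trav3-4, again with the cysteine codon in capitals. They are Trav3-4 (chr14:53777517-53777576), Trav3-3 (chr14:53666447-53666506), Trav13-1 (chr14:53545466-53545525), Trav14-2 (chr14:53641166-53641225), Trav14-3 (chr14:53763635-53763694), Trav14d-3-dv8 (chr14:53078986-53079045) and Trav10 (chr14:53506227-53506286).
Trav3-4: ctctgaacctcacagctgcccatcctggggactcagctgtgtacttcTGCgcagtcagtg
Trav3-3: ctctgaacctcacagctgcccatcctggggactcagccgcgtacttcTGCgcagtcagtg
Trav13-1: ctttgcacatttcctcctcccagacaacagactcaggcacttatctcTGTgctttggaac
Trav14-2: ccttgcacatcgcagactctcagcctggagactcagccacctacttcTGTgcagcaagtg
Trav14-3: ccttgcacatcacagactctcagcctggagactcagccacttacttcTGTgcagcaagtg
Trav14d-3-dv8: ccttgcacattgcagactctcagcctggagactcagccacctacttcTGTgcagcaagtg
Trav10: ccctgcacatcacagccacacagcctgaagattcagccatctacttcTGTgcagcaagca

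The authors deposited FPKM, which is reads on a gene scaled by gene length and library size. Reads were recovered from these values, and they came out whole, within 0.01 reads, for 100% of the genes above 0 in both libraries. Recovered reads on genes numbered 23086889 for PDR and 25427863 for SKYD. The sorted population was checked against its markers. The F4/80 gene Adgre1 had 6639 and 7551 reads, the CD11b gene Itgam had 1043 and 1803, and Csf1r, a receptor of macrophages, had 6620 and 5486. The 13 macrophage markers took 3.39% of the PDR reads and 6.30% of the SKYD reads, and most of these were on Lyz2 (686737 and 1359594 reads). Of the 13, 11 were higher in SKYD, 4 of them by more than 2-fold (6.91% of all tested genes were), and 0 passed 2-fold in PDR (7.38% of all tested genes did). Genes of alpha-beta T cells were also present, with none of 16 at 0 in either library. Those 16 genes, among them the Cd3 chains, Cd4, Cd8a and Lck, took 0.0911% of the PDR reads and 0.590% of the SKYD reads. In bulk libraries, fewer cells of a type and less RNA in each cell cannot be told apart, and the part of T cell number in the results below was not tested.

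Trav segments had more reads in the SKYD group. The 108 segments together held 360 PDR reads and 1517 SKYD reads. As a share of all reads on genes, this was 0.00156% (95% CI 0.00140 to 0.00173) in PDR and 0.00597% (95% CI 0.00567 to 0.00627) in SKYD. Per library size, the sum was 3.96-fold higher in SKYD (95% CI 3.53 to 4.45). Intervals here are exact (Clopper-Pearson), and they cover counting error only and not the spread between mice. The reads were thinly spread, since no segment had more than 42 reads in PDR or 140 in SKYD. A count of 0 allows up to 3 reads, or 0.833% of the Trav reads of the PDR library and 0.198% of those of the SKYD library.

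Most of the 108 segments were seen in SKYD, and nearly as many were seen as not seen in PDR. At least 1 read was found on 52 segments in PDR and on 77 in SKYD, with 48 seen in both, 29 only in SKYD, 4 only in PDR and 27 in neither. Over all 54532 genes, 17738 were above 0 in PDR and 20499 in SKYD. How many of all genes were seen in only 1 library, or were higher in each, was not counted. The segment counts are therefore a description only. The 4 seen only in PDR (Trav7d-2, Trav9d-2, Trav13d-4 and Trav9n-3) had 1 to 3 reads each. FPKM was higher in SKYD for 67 segments and higher in PDR for 14. Among those 14, only Trav5-4, Trav16n and Trav4-3 had 10 or more reads in the PDR library. The deeper pool of Trav reads in SKYD bears on the number of segments seen. If 360 reads were drawn from the 1517 SKYD reads, 62.2 segments would be seen on average, against the 52 seen in PDR. The spread of such draws was not computed, so whether 52 lies outside it was not tested.

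**Figure D1:**
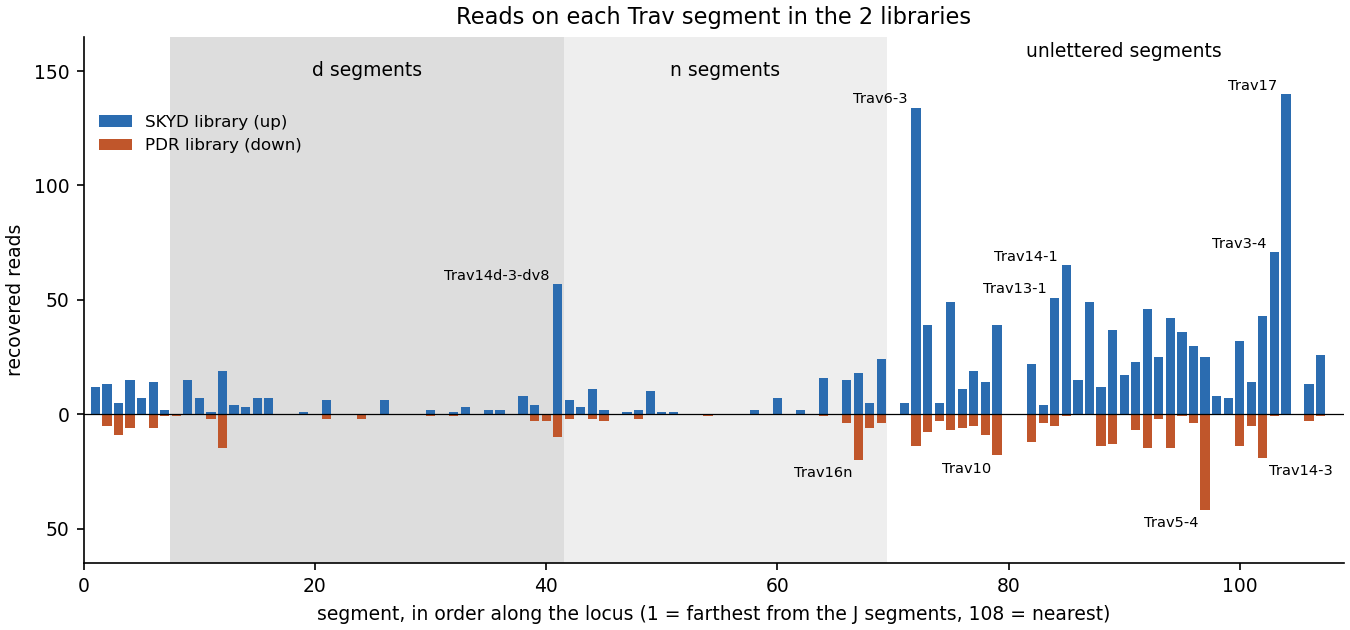
Recovered reads on each of the 108 Trav segments, with SKYD reads drawn upward and PDR reads downward, in order along the locus from the segment farthest from the J segments (left) to the nearest (right). Shaded areas are the d and n segments, the unshaded areas on both sides are unlettered segments, and Trav17 (140 reads) and Trav6-3 (134 reads) stand above the rest in SKYD, while Trav5-4 (42 reads) is the highest in PDR.

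Differences are given as log2(FPKM + 1) in PDR minus that in SKYD, so that negative values are higher in SKYD, for genes that averaged 1 FPKM or more over the libraries. Of the 108 segments, 32 passed this filter. All 32 had at least 1 FPKM in SKYD and 13 had it in PDR, so that many passed through the SKYD value, and the counts over them are a description only. More than 2-fold higher in SKYD were 15 of the 32 segments, where 6.91% of all 10399 tested genes were. In the other direction it was 0 of 32, where 7.38% of all tested genes were. The median difference of the 32 segments was -0.98, with a range from -4.12 to 0.67, and that of all tested genes was -0.0035. Of the 15 segments, 13 had an FPKM under 1 in PDR. Segments with at least 10 reads over both libraries were also compared by their ratio of reads per library size, which needs no pseudocount. Of 44 such segments, 35 were more than 2-fold higher in SKYD, and 18.4% of 16703 genes with as many reads were. In PDR it was 0 of 44, and 15.0% of the genes. This filter too can be passed through SKYD reads alone, as it was by the 7 of the 44 with 0 reads in PDR, so these counts are also a description only. The filter split the segments between Trav13-4-dv7, with a mean FPKM of 1.004, and Trav8n-2, with 0.944.

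**Figure D2:**
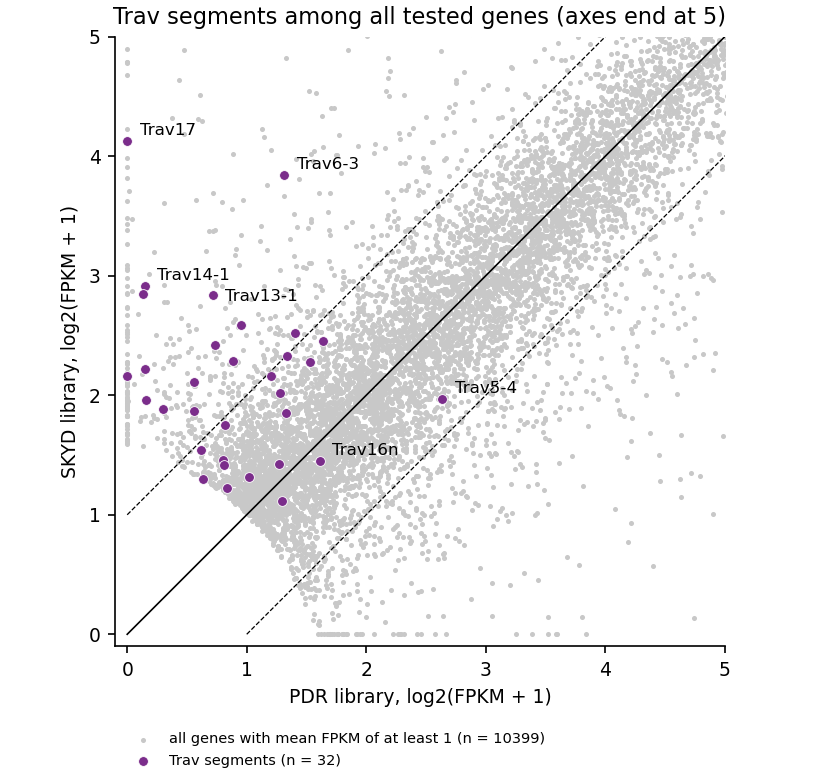
Each point is a gene that averaged 1 FPKM or more, placed by log2(FPKM + 1) in the PDR library (horizontal) and the SKYD library (vertical); grey points are all 10399 tested genes and purple points the 32 Trav segments, the solid line is equality and the dashed lines are 2-fold. Of the purple points, 29 lie above the solid line and 15 above the upper dashed line, and Trav5-4 is the farthest below equality.

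Of the 5 segments with the largest differences, 4 had at most 1 read in the PDR library, and the other, Trav6-3, is described after them. Trav17, a single-member family near the J end of the V region, had 0 reads in PDR and 140 in SKYD, or 0 and 16.4 FPKM. With the 0 set to 3 reads, SKYD was 43.9-fold higher, a value that leaves out counting error in the SKYD reads. Trav3-4, 1 of 5 segments of its family, had 1 read and 71 reads, a ratio of 66.7 (95% CI 11.6 to 2672). Trav14-1 had 1 and 65, a ratio of 61.1 (95% CI 10.6 to 2449). Both ratios rest on a single PDR read and are wide for that reason. Trav9-2 had 0 reads in PDR and 49 in SKYD, and was 15.3-fold higher when the 0 was set to 3 reads in the same way. On the log2(FPKM + 1) scale the differences were -4.12 for Trav17, -2.76 for Trav14-1, -2.72 for Trav3-4 and -2.16 for Trav9-2.

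Trav6-3 and Trav13-1 had reads in both libraries and were far higher in SKYD. Trav6-3 had 14 reads in PDR and 134 in SKYD, or 1.49 and 13.4 FPKM, a log2 difference of -2.53 (95% CI -3.04 to -1.98). Trav13-1 had 5 and 51 reads, a log2 difference of -2.12 (95% CI -2.64 to -1.42). Trav14d-3-dv8, which can also join a delta chain, was the highest d segment by mean FPKM. Its reads numbered 10 in PDR and 57 in SKYD, and the log2 difference was -1.63 (95% CI -2.14 to -1.04). These 3 intervals lie wholly past 2-fold.

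Trav14-2, Trav14-3 and Trav10 were closer in the libraries. Trav14-2 had 15 reads in PDR and 46 in SKYD, a log2 difference of -1.12 (95% CI -1.70 to -0.50), so its interval spans 2-fold. Trav14-3 had 19 and 43 reads, with -0.82 (95% CI -1.40 to -0.21). Trav10 had 18 and 39, with -0.75 (95% CI -1.33 to -0.14). All were higher in SKYD by more than counting error, and the last 2 are not among the 15. By reads per library size, however, the ratios of Trav14-3 and Trav10 were 2.13 (95% CI 1.21 to 3.86) and 2.04 (95% CI 1.14 to 3.78). With a pseudocount of 0.01 both also passed 2-fold, at -1.09 and -1.02. Members of the Trav14 family therefore ran from -0.82 for Trav14-3 to -2.76 for Trav14-1, although the last 60 bases of Trav14-2, Trav14-3 and Trav14d-3-dv8 printed above are nearly alike.

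A few segments did not have the SKYD excess. Trav5-4 was the highest segment in PDR with 42 reads and had 25 in SKYD, or 5.21 and 2.92 FPKM. Its log2 difference was 0.67 (95% CI 0.07 to 1.25), a ratio of 1.79 in favour of PDR (95% CI 1.07 to 3.06), which is under 2-fold. Trav4-3 had 14 reads and 12, a log2 difference of 0.18 (95% CI -0.50 to 0.83). Trav16n, the highest n segment by mean FPKM, had 20 and 18, a log2 difference of 0.16 (95% CI -0.48 to 0.79). For the last 2, the difference lay within counting error. These were the 3 of the 32 segments with a higher value in PDR.

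The split of Trav reads over segments is given for segments already named for their differences, so these shares restate that choice and are a description only. Trav5-4 took 11.7% of the Trav reads in PDR (95% CI 8.54 to 15.4) and 1.65% in SKYD (95% CI 1.07 to 2.42). Trav16n took 5.56% (95% CI 3.43 to 8.45) and 1.19% (95% CI 0.705 to 1.87), and for Trav4-3 the shares were 3.89% (95% CI 2.14 to 6.44) and 0.791% (95% CI 0.409 to 1.38). The intervals of these 3 did not overlap between the libraries. Trav17 held 9.23% of the SKYD Trav reads (95% CI 7.82 to 10.8) and none of the PDR reads. Trav6-3 held 8.83% in SKYD (95% CI 7.45 to 10.4) and 3.89% in PDR (95% CI 2.14 to 6.44). Neither library rested on a few segments, as 50% of the Trav reads were held by 10 segments in PDR and by 12 in SKYD.

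**Figure D3:**
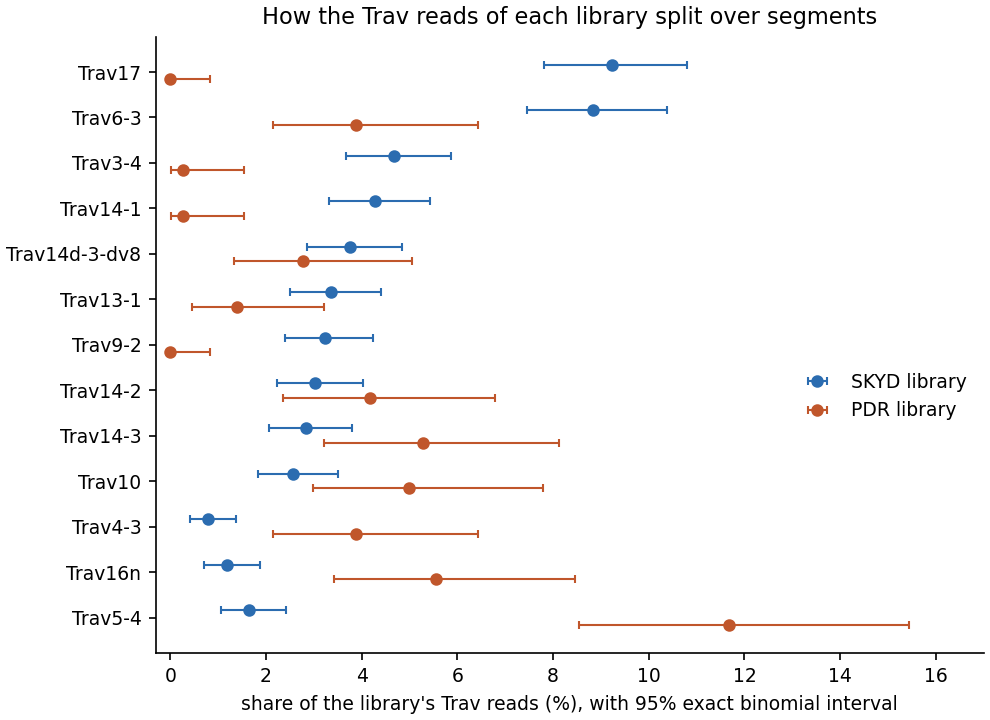
Share of the library's Trav reads (%) held by 13 named segments in the SKYD library (blue, of 1517 reads) and the PDR library (orange, of 360 reads); bars are 95% exact binomial intervals and, where no read was found, end at the limit of 3 reads. Trav17 is at 9.23% in SKYD and 0 in PDR, and Trav5-4 is at 11.7% in PDR and 1.65% in SKYD.

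Families, which share a number in the name, went different ways in size. The Trav14 family had the most reads in SKYD, 50 in PDR and 247 in SKYD over its 9 segments, a ratio of 4.64 (95% CI 3.41 to 6.42). Trav6 (15 segments) had 32 and 200, a ratio of 5.87 (95% CI 4.03 to 8.82). Trav7 (13 segments) had 52 and 180, with 3.25 (95% CI 2.38 to 4.52). The intervals of these 3 families overlap each other and the interval over all segments. Trav9 (10 segments) had 9 and 118 reads, a ratio of 12.3 (95% CI 6.27 to 27.6), with an interval above that of all segments together. So did Trav15 (6 segments), with 2 and 43 reads and a ratio of 20.2 (95% CI 5.26 to 172), which rests on 2 PDR reads. The Trav5 family (4 segments) had 48 and 44, a ratio of 0.861 (95% CI 0.559 to 1.32), and Trav16 (3 segments) had 37 and 54, a ratio of 1.37 (95% CI 0.886 to 2.14). In Trav5 most PDR reads were on Trav5-4, and Trav5-1, the next in reads, had 6 and 15. Segments of a family share sequence, so reads may be misplaced among them, and the family sums are less open to this than single segments.

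The repeated arrays limit what single segments can show. The 108 segments fall into 46 unlettered, 34 d and 28 n segments. The V exons of an unlettered segment and its d or n copy, 56 pairs in all, differed by 0 to 36 bases with a median of 8. Reads were paired and 100 bases long, so each transcript was cut into windows of 100 bases, and windows found in no other gene were counted. The windows stand for 1 read of a pair at a time and not for the pair. For 36 segments no window was their own, for 19 every window was, and the median was 59.1%. The median was 91.7% for unlettered, 0.210% for d and 0% for n segments. A pair of examples is printed, with the bases that differ from the unlettered V exon in capitals and, for Trav14n-1, over the last 300 bases. Trav6d-3 (chr14:52726628-52726919) is compared with Trav6-3, from which it differs at 1 base, and Trav14n-1 (chr14:53166879-53167178) with Trav14-1, from which it differs at 13.
Trav6d-3: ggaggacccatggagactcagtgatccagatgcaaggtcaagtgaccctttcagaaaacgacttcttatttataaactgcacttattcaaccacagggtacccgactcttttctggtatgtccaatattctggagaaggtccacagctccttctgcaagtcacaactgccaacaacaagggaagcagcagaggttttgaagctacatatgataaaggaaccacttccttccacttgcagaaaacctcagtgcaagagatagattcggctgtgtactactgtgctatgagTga
Trav14n-1: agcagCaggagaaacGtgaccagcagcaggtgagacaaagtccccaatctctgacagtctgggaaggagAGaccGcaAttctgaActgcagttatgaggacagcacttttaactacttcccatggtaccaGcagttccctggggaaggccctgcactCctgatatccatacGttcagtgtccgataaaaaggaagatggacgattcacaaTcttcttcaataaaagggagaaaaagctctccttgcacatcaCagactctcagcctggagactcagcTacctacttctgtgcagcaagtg

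Reads followed the windows. The 36 segments with no window of their own had 6 reads in PDR and 47 in SKYD, and 21 of them had 0 in both. The 19 segments with every window their own had 104 and 417 reads, a ratio of 3.77 (95% CI 3.03 to 4.72). The 37 segments with 50% to under 100% had 214 and 816, a ratio of 3.58 (95% CI 3.08 to 4.19). The ratios of these last 2 sets were close. The 16 segments with some windows but under 50%, Trav6-3 among them, had 36 and 237 reads, a ratio of 6.19 (95% CI 4.34 to 9.05), and the ratio of the 36 with no window was 7.36 (95% CI 3.14 to 21.1). Trav6-3 has 15.2% of its windows to itself, so its 14 and 134 reads and the 0 and 15 of Trav6d-3 are uncertain as a split between them. Trav17, Trav5-4, Trav14-1 and Trav4-3 have 100%.

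**Figure D4:**
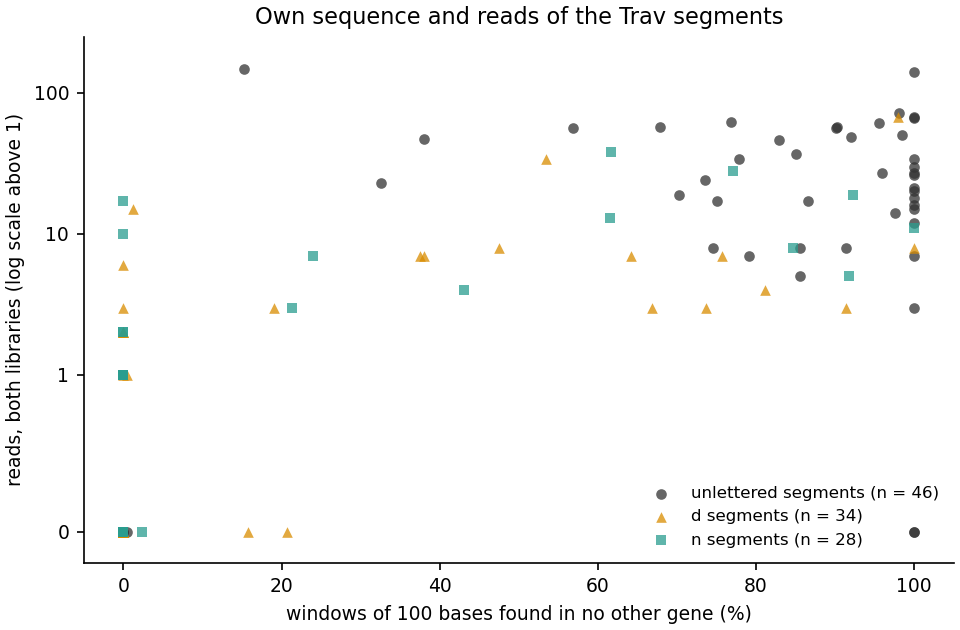
Reads over both libraries (vertical, log scale above 1) against the percentage of windows of 100 bases found in no other gene (horizontal) for the 46 unlettered, 34 d and 28 n segments. Most d and n segments sit at the left with few reads, and Trav6-3 is the point at the top left with 15.2% of its windows to itself.

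The unlettered segments held most reads in both libraries. Their windows were also mostly their own, with a median of 91.7%, against 0.210% for d and 0% for n segments. The unlettered segments had 275 reads in PDR and 1236 in SKYD, or 76.4% and 81.5% of the Trav reads. The d segments had 40 and 155, with shares of 11.1% (95% CI 8.06 to 14.8) and 10.2% (95% CI 8.74 to 11.9). The n segments had 45 and 126, with shares of 12.5% (95% CI 9.27 to 16.4) and 8.31% (95% CI 6.97 to 9.81). Ratios of SKYD to PDR were 4.22 (95% CI 3.70 to 4.83), 3.64 (95% CI 2.56 to 5.29) and 2.63 (95% CI 1.86 to 3.79). The intervals of the 3 arrays overlapped. Over segments with at least 50% of windows of their own, a set chosen after the data were seen, the ratios were 4.04 (95% CI 3.51 to 4.66) for unlettered, 2.93 (95% CI 1.96 to 4.48) for d and 1.86 (95% CI 1.26 to 2.77) for n segments, and those of unlettered and n segments did not overlap. The n segments of this set took 11.4% of the Trav reads in PDR (95% CI 8.30 to 15.1) and 5.34% in SKYD (95% CI 4.26 to 6.59). Trav16n alone held 20 of their 41 PDR reads and 18 of their 81 SKYD reads. The lower ratio of the n segments therefore leans on 1 segment, and it was not compared without that segment. By reads over both libraries, which SKYD dominates, the unlettered form had the most in 27 of the 32 segments with such a form and a copy. Reads that fit several genes may not have been counted, and 17 of the 34 d and 17 of the 28 n segments have no window of their own. The count of 27 therefore cannot show which form was used more. A copy had more in 4 (Trav14-3, Trav6-6, Trav7-2 and Trav7-6). Within the 27, a copy had more in the PDR library for Trav7-4 (15 against 7) and Trav16 (20 against 14). The same held there for Trav13-4-dv7 (6 against 5) and Trav9-2 (2 against 0). For Trav14-3 the copy was Trav14d-3-dv8, which had more reads in SKYD (57 against 43) and fewer in PDR (10 against 19). The 14 unlettered segments without a copy, Trav17 among them, had 32 and 323 reads, a ratio of 9.49 (95% CI 6.59 to 14.1). The 32 with a copy had 243 and 913, a ratio of 3.53 (95% CI 3.06 to 4.08). Of the 323 SKYD reads of the first set, 140 were on Trav17 and 71 on Trav3-4.

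Position along the locus was compared because joining of V to J in a young T cell is known to begin with V segments near the J segments and to move outward. The members were split by their order into 36 segments far from the J segments, 36 in the middle and 36 near. In PDR these had 51, 75 and 234 reads, and in SKYD 154, 334 and 1029. The near segments took 65.0% of the Trav reads in PDR (95% CI 59.8 to 69.9) and 67.8% in SKYD (95% CI 65.4 to 70.2), with overlapping intervals. The far segments took 14.2% (95% CI 10.7 to 18.2) and 10.2% (95% CI 8.68 to 11.8), and these overlapped too. Ratios of SKYD to PDR were 2.84 (95% CI 2.06 to 3.98) for far, 4.19 (95% CI 3.25 to 5.45) for middle and 4.13 (95% CI 3.58 to 4.78) for near segments. The far and middle segments are mostly d and n copies, so the split was repeated over segments with at least 50% of windows of their own. There the far segments took 12.2% of the Trav reads in PDR (95% CI 9.02 to 16.1) and 6.72% in SKYD (95% CI 5.52 to 8.10), which did not overlap. Of their 44 PDR and 102 SKYD reads, Trav7d-4 alone held 15 and 19. The far shares therefore lean in part on 1 segment, and they were not compared without that segment. The ratio was 2.18 (95% CI 1.52 to 3.18) for these 12 far segments, 2.56 (95% CI 1.87 to 3.53) for 12 middle ones and 4.23 (95% CI 3.64 to 4.92) for the 32 near ones. The middle segments of this set took 15.8% in PDR (95% CI 12.2 to 20) and 10.2% in SKYD (95% CI 8.74 to 11.9), again without overlap. Of their 57 PDR and 155 SKYD reads, Trav16n alone held 20 and 18. The middle shares therefore lean on 1 segment, and they were not compared without it. The near segments of this set took 60.3% (95% CI 55.0 to 65.4) and 64.3% (95% CI 61.9 to 66.8), with overlap. The last in order, Trav23, had 0 reads in both libraries, and so had Trav18. Both have 100% of their windows to themselves.

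Segments that can also serve in a delta chain were higher in SKYD as well. The 10 segments with dv in their name had 25 reads in PDR and 179 in SKYD, a ratio of 6.73 (95% CI 4.41 to 10.7), and the other 98 had 335 and 1338, a ratio of 3.75 (95% CI 3.33 to 4.24). Of the 10, 8 had more SKYD reads and 2 had no read. Trav21-dv12, the dv segment nearest the J segments, had 1 and 26 reads, a ratio of 24.4 (95% CI 4.01 to 1002). Trav15-2-dv6-2 had 2 and 25, and Trav4-4-dv10 had 4 and 30. A read on a dv segment does not show which chain it came from.

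Segments of the invariant receptors had few or no reads. Trav11 joined to Traj18 marks invariant NKT cells, which recognise lipids on CD1d, and Trav1 joined to Traj33 marks MAIT cells, which recognise vitamin B metabolites. Trav11 and its copy Trav11d had 0 reads in both libraries. As 0.41% and 0% of their windows are their own, nearly all reads from either would fit both and may not have been counted, and the 0 says little. Traj18 had 0 reads in PDR and 5 in SKYD, and Zbtb16, a transcription factor of NKT cells, had 6 and 139. Trav1, with every window its own and the first segment in the locus, had 0 reads and 12, and Traj33 had 3 and 17. With the 0 set to 3 reads, the SKYD value of Trav1 was 3.76-fold higher, which leaves out counting error in its 12 SKYD reads. The ends of the V exons of Trav11 (chr14:53519800-53519859) and Trav1 (chr14:52428817-52428876) are shown because these segments define the receptors.
Trav11: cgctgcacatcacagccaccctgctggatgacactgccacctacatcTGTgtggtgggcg
Trav1: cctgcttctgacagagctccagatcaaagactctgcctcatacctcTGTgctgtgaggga

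The partners of the segments in the receptor were higher in SKYD by different amounts. Trac, the alpha constant gene, had 1398 reads in PDR and 4381 in SKYD, a ratio of 2.94 (95% CI 2.77 to 3.13). Per 100 Trac reads there were 25.8 Trav reads in PDR (95% CI 22.9 to 28.9) and 34.6 in SKYD (95% CI 32.6 to 36.7), so the Trav excess was larger than that of the constant gene. The 60 Traj segments, which are short, had 8 and 133 reads, a ratio of 15.6 (95% CI 7.70 to 36.9). The 22 V segments of the beta chain (Trbv) had 1623 and 9207, a ratio of 5.33 (95% CI 5.06 to 5.62). The beta constant genes Trbc1 and Trbc2 had 6588 and 63985, a ratio of 9.13 (95% CI 8.90 to 9.36). Per 100 reads on Cd3d, Cd3e and Cd3g, which carry the signal of the receptor, there were 7.46 Trav reads in PDR (95% CI 6.68 to 8.30) and 5.38 in SKYD (95% CI 5.11 to 5.67). The Trav excess in SKYD was therefore larger than that of Trac and smaller than those of the Cd3, Trbv and Trbc genes. The 20 Trav pseudogenes had 6 and 29 reads, 1.67 and 1.91 per 100 reads on Trav segments, which do not differ beyond counting error (95% CI 0.608 to 3.66 and 1.28 to 2.76).

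**Figure D5:**
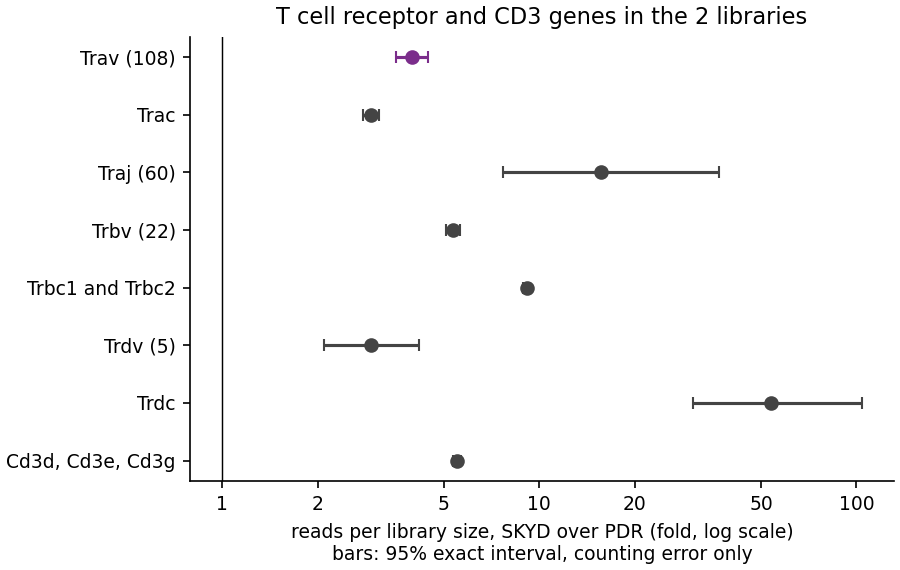
Ratio of SKYD to PDR reads per library size (log scale) for the Trav segments and for other genes of the T cell receptor and CD3, with the number of genes in brackets; bars are 95% exact intervals for counting error. Trav is at 3.96, above Trac at 2.94 and below Cd3 at 5.49 and Trbc at 9.13.

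Most genes that join receptor segments or mark immature T cells were also higher in SKYD. Rag1 and Rag2, which cut the DNA, had 0 reads in PDR and 637 and 2262 in SKYD. With each 0 set to 3 reads, Rag1 and Rag2 were 199.5-fold and 709-fold higher, leaving out counting error in the SKYD reads. Ptcra, the partner of the beta chain before an alpha chain is made, had 0 and 475 reads. It was 149-fold higher in the same way. Dntt, which adds bases at the joins, had 39 and 10953. Of 15 such genes, 13 were more than 2-fold higher in SKYD, where 6.91% of all tested genes were, and 0 in PDR, where 7.38% were, with a median difference of -2.82. Cd1d1, which presents lipids to NKT cells, was the 1 gene of the list with a higher value in PDR (1200 and 685 reads, a log2 difference of 0.84). The same shares over all genes hold for the lists that follow. Among the 16 genes of alpha-beta T cells it was 15 in SKYD and 0 in PDR, with a median of -2.30. Genes of mature or naive T cells were divided, with 1 of 7 tested genes (Klf2) in SKYD, 0 in PDR and a median of 0.31. Of 5 gamma-delta T cell genes tested, 4 passed 2-fold in SKYD and 1 in PDR. Among 10 genes of NK and effector T cells, 8 passed 2-fold in PDR and 0 in SKYD, the opposite direction to the Trav segments. Of 7 B cell genes, 6 passed 2-fold in PDR. Of 8 genes of thymic epithelium, 3 were tested, and 1, Krt8, passed 2-fold in SKYD (196 and 872 reads). Ccl25 had 145 and 341 reads, and Epcam had 279 and 346, a log2 difference of -0.19 (95% CI -0.39 to 0.01). Krt5 had 0 and 29 reads, Aire 0 and 7 and Prss16 40 and 47, and Foxn1 and Psmb11 were at 0 in both libraries. The part of immature T cells and of thymic epithelium in the Trav difference was not tested.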

How the data were processed

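RNA sequencing covered 1 library per group, each a pool of sorted aortic cells from 5 mice. After filtering, the authors aligned reads with TopHat2 2.0.9 and Bowtie2 2.0.6, counted them per gene with HTSeq 0.6.1 and deposited FPKM. The strand setting and the handling of reads that fit several genes are not given in the sources used here, and HTSeq by default does not count such reads. The submitters' notes name mm9, but 98.3% of 54495 genes shared with GENCODE vM21 have its GRCm38 position, as do all 108 segments, so positions are given on GRCm38. TopHat aligns to unjoined germ line DNA, so reads across a V to J join can be lost.

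To recover reads, each FPKM was multiplied by gene length and divided by the value of 1 read, which was found for each library from its low values. Relative to the recovered sum, the size used for FPKM was 1.02 in PDR and 0.983 in SKYD, and a count of 0 allows 1.3e-05% and 1.18e-05% of the library. Differences are of log2(FPKM + 1), with a pseudocount of 1, over genes that averaged 1 FPKM or more, and understate the change of low genes. Ratios compare reads per library size. Alternatives were pseudocounts of 0.1 and 0.01, TPM, centring (median, or mean trimmed by 30% at each end), other filters and thresholds, other denominators, and leaving out copies. The members, lists and tests were chosen with earlier results of these data known. Named segments were the 10 with the highest mean FPKM, the 5 with the largest difference each way (only 3 were higher in PDR), those beside the filter, those of invariant receptors, the first and last, and the highest of each array. Others were named after their values were seen. On simulated data, 109064 of 109064 values were recovered, and 198 of 200 genes changed 4-fold and 12 of 10208 unchanged genes were called. Tools were scipy 1.17.1, pandas 2.3.3, matplotlib 3.10.9 and numpy 2.4.6 under Python 3.11.15.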

Additional observations from a re-analysis of the deposited data

How the results depend on the processing

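The Trav segments stayed higher in SKYD under the alternatives tried other than scaling to Cd3 reads, and per 100 Trbv reads they were also lower in SKYD (22.2 in PDR and 16.5 in SKYD). The number of segments more than 2-fold higher in SKYD, 15 of 32, was 24 with a pseudocount of 0.1, 25 with 0.01, 7 at a 4-fold threshold and 35 of 44 by the ratio of reads. Over all 10399 genes the count was 719, and 1010, 1048 and 216 under the first 3 of these. Among the segments it was 2 of 2 with a mean FPKM of at least 5, where it was 373 of 5760 genes, and 3 of 5 for segments without a near copy. The median difference, -0.98, was -0.30 with no filter, -3.33 with a mean FPKM of at least 5 and -1.80 without near copies. Fewer segments enter the last 2. With a pseudocount of 0.1 the median was -2.58 against -1.59 for dv segments, -1.04 against -0.60 for far segments, -4.83 against -2.82 for immature T cell genes and -2.04 against -0.59 for invariant NKT genes. With no filter it was -0.047 against -0.89 for d segments, 0 against -0.58 for n segments, -0.14 for far segments, -0.047 against -1.47 for middle segments, -0.15 against -0.63 for thymic epithelium genes, 0 for invariant NKT genes and -1.53 against -2.95 for gamma-delta T cell genes. Segments and genes with few or no reads enter these medians. The share of reads was 0.00175% in PDR and 0.00635% in SKYD over protein-coding and T cell receptor genes only. Per read on the Cd3 genes, Trav reads in SKYD were 0.721 times those in PDR, since the Cd3 genes differed more between the libraries. For 16 named segments, 25 of 80 alternative values moved by more than counting error, all larger, under smaller pseudocounts or TPM. For Trav1, Trav9-2 and Trav17, with 0 reads in PDR, the interval ended at the estimate itself. Any larger value of these segments therefore counted as moved. No paired analysis was possible because each group has 1 library, and no library could be left out. Segments with 0 reads in PDR allow only a lower bound on their ratio at this depth, and the values given leave out counting error in SKYD.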

Other observations

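Delta chain V segments (Trdv) lie at the J end of the Trav segments and did not all go with them. The 5 Trdv segments together had 47 reads in PDR and 147 in SKYD, a ratio of 2.94 (95% CI 2.10 to 4.17). Trdv2-2 had 6 and 93 reads and Trdv1 had 2 and 37. Trdv4, which lies past the last Trav segment, had 39 reads in PDR and 5 in SKYD, a log2 difference of 1.71 (95% CI 1.08 to 2.14). The constant gene of the delta chain, Trdc, had 12 and 686. The cause of the opposite direction of Trdv4 was not tested, and these segments were named after their values were seen.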
